A study of Mus musculus with 3 samples.

Results

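Gm4070, Gm4724 and Gm14434 are predicted mouse genes that the RNA-seq table of wild-type tendon cells does not list, although each has at least 70 estimated reads in both tables of CFTR ΔF508 cells. These 3 genes, of 16621 in the tables, were chosen by exactly those values, so their difference from wild type is described here and not tested. They are members of multicopy families. Gm4070 is a very large GTPase gene with a near-identical copy, Gvin1. Gm4724 and Gm14434 are copies within a cluster of zinc finger genes. The wild-type library listed another copy of each, near-identical over the annotated transcripts compared, and a CFTR ΔF508 library listed that copy as well. All 3 members have estimates that are not whole numbers, as arise when reads are divided among transcripts.

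The cells were tendon derived stem cells from the tail of C57BL/6 mice, 10 weeks old, grown without treatment and taken at passage 4 at confluence for poly(A) sequencing. There was 1 wild-type library (WT) and 2 libraries (DF508) from cells carrying CFTRΔF508, a mutation of the anion channel gene that is defective in cystic fibrosis. Separate mice or cultures are not named for the DF508 libraries, so the spread between them may be technical, and WT has no replicate. The totals were 5241826 to 5298326 estimated counts. Tendon markers were present, with 10 of 10 listed in every library and a summed level of 45100 to 47300 CPM. CPM is counts scaled to library sizes normalised by edgeR's TMM. Thbs4 was the highest of them, at 18600 to 21200 CPM, and Scx the lowest, at 2.08 to 3.09 CPM. All 5 progenitor surface markers were listed in every library and summed to 1310 to 1390 CPM, with Nt5e at 8, 10 and 2 counts in WT and DF508 replicates 1 and 2. The 10 myeloid markers summed to 89.7 CPM in WT, 136 CPM in DF508 replicate 1 and 624 CPM in DF508 replicate 2. Of 5 endothelial markers, Pecam1, Cdh5 and Emcn were at 0 in all 3 libraries, Kdr had at most 1 count and Tek had 77, 69 and 65 counts, for a sum of 12.5 to 15 CPM. Of 4 keratinocyte markers, Krt5 and Krt14 were at 0 throughout, and Krt8 and Epcam had at most 3 counts.

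Very large interferon-inducible GTPases are giant cytosolic members of the interferon-inducible GTPase superfamily, whose smaller relatives act in cell-autonomous defence against pathogens. The zinc finger genes belong to a rodent cluster of recent tandem duplications. Many proteins of this type carry a KRAB domain, which recruits the corepressor Trim28 and the histone methyltransferase Setdb1 to silence the DNA that the zinc fingers bind, often transposable elements. Copies that arose recently have nearly the same transcripts. The quantifier RSEM divides a read that aligns equally well to several transcripts among them, in fractions that it estimates from all reads together.

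Gm4070 and Gvin1 differ by so little over the annotated transcripts compared that few reads from these can tell them apart. In the GENCODE M21 annotation (GRCm38), the shorter RefSeq-linked transcript of each is 8795 bases long, and the copies match at 8792 of these, or 99.97%. The 3 differences all lie in coding sequence in exon 2 of 2. They are T1895G, A4994G and T7165C, counted from 1 at the 5′ end of the transcript, with the base of Gm4070 first and that of Gvin1 last. The stretches around them are shown because they are the places where a read could be assigned, with the differing base in capitals.
Gm4070 1881 to 1909: atctcagttgtgcaTccttctagaacctc
Gvin1 1881 to 1909: atctcagttgtgcaGccttctagaacctc
Gm4070 4980 to 5008: tatggaaggacggaAgagactggagcaga
Gvin1 4980 to 5008: tatggaaggacggaGgagactggagcaga
Gm4070 7151 to 7179: tccgggaattcccaTtcaagaaatatcga
Gvin1 7151 to 7179: tccgggaattcccaCtcaagaaatatcga
Of the 8746 possible 50-base stretches of this Gm4070 transcript, 150 cover a difference, or 1.72%, and the other 8596 are identical in Gvin1. The sources used here give no read length, and 50 bases stands for a read of that length. The lengths RSEM used were longer, 8843 bases for Gm4070 and 8846 for Gvin1 in DF508 replicate 2. The transcripts compared here may therefore not cover all that the authors counted against.

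Gm4724 and Gm14434 cannot be told apart over the annotated transcript at all. The 1497-base transcript of Gm14434 is held whole, with 0 substitutions, in the transcripts of Gm4724, Gm4631, Gm14308 and Gm2026. Gm14305 has 7 substitutions over the same length. None of the 1379 different 50-base stretches of the Gm14434 transcript, and none of the 1541 of Gm4724, is absent from all other genes. At least 50% of the Gm14434 stretches were found in each of 10 other genes, of which 6 are listed in the deposited tables. For Gm4070, the one gene past that share was Gvin1, with 98.3%, and 102 of the 8958 stretches of its longer transcript were in no other gene. The authors' tables give Gm4724 and Gm14434 a length of 4538 bases, so the annotated transcripts used here cover only part of what the authors counted against.

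**Figure D1:**
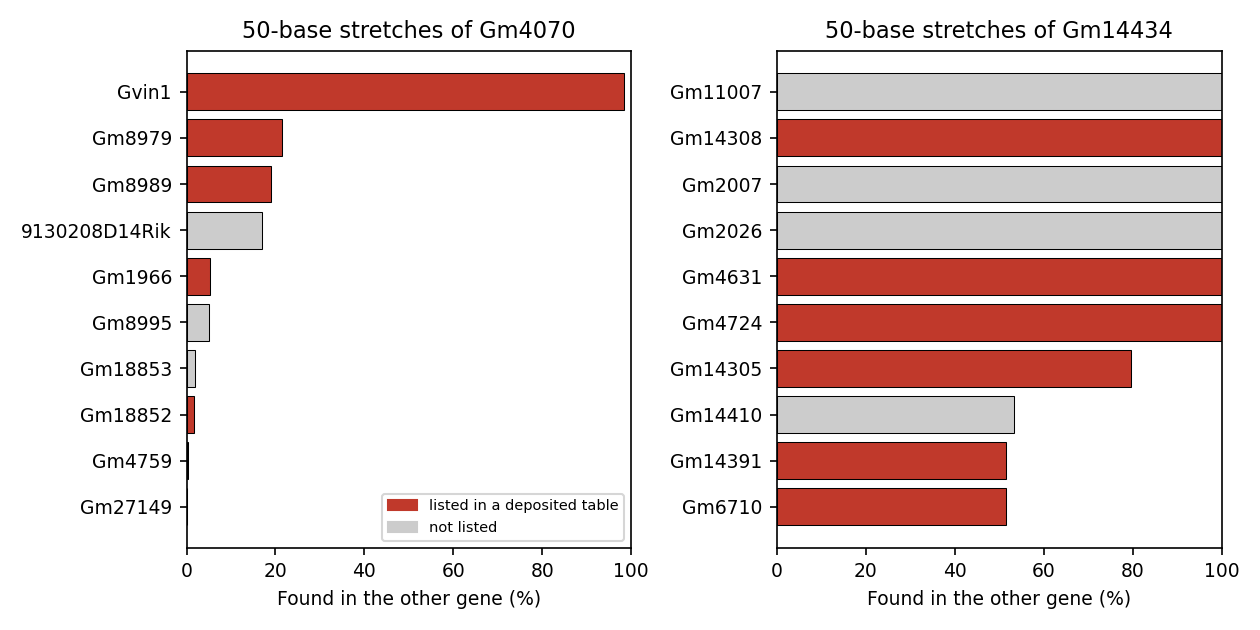
Share of the different 50-base stretches of the Gm4070 transcript (left) and the Gm14434 transcript (right) found in a transcript of each other gene, in percent, for the 10 genes with the highest share. Coloured bars are genes listed in a deposited table (Gm4631 under ID 627914) and grey bars are genes that are not; Gvin1 stands alone at 98.3% on the left, while 6 genes reach 100% on the right.

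The sequence before the transcription start is also shared by several copies, though not always by those that share the transcript. Over 300 bases from 250 before the start to 50 after it, RefSeq's promoters (GRCm38.p6) of Gm4724, Gm14434, Gm2026 and Gm14308 are identical. That of Gm14326 matches at 292 bases at best, that of Gm4631 at 291, that of Gm14305 at 287 and that of Gm2007, whose transcript holds every stretch of Gm14434, at 232. The 250 bases before the start are shown for Gm14434, at chr2:176486750-176486999 on the minus strand in GRCm38.p6, a later build than the mm9 of the tables. Capitals mark the motif CCAAT, searched on both strands, which occurs once on each strand.
Gm14434 promoter: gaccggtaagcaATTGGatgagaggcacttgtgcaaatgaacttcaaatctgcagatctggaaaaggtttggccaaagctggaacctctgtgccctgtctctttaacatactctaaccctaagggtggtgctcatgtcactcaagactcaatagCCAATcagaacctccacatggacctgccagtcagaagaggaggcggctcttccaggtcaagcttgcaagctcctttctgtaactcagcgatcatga
The same motif occurs in 37.4% of 32851 promoters of that length. The core of the interferon-stimulated response element, searched as GAAA followed after 2 bases by another GAAA, has no match in this window and occurs in 3.44% of promoters; nothing about the factors follows from that. The RefSeq promoter table was matched for Gm4724 and Gm14434, and not for Gm4070.

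Gm4070 (gene ID 100042856) was listed at 0 in WT, at 133.95 counts in DF508 replicate 1 and at 171.88 counts in DF508 replicate 2. Gvin1 (gene ID 74558), its near-identical copy, ran the other way, with 255.77 counts in WT, 0 in DF508 replicate 1 and 83.32 in DF508 replicate 2. WT thus holds Gvin1 alone, DF508 replicate 1 holds Gm4070 alone, and DF508 replicate 2 holds both. Per length, Gm4070 stood at 2.84 and 3.67 FPKM (fragments per kilobase of transcript, scaled to library depth) in DF508, and Gvin1 at 5.36 FPKM in WT and 1.78 FPKM in DF508 replicate 2. The Gm4070 value was above the FPKM of 33.6% and 37.5% of the genes listed in DF508 replicates 1 and 2. The length RSEM used for Gm4070 was 8909.24 bases in DF508 replicate 1 and 8843 in replicate 2. For Gvin1 it was 8915.43 bases in WT and 8846 in DF508 replicate 2.

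Added together, Gm4070 and Gvin1 gave 255.77 counts in WT, 133.95 in DF508 replicate 1 and 255.2 in DF508 replicate 2. A read moved between the copies leaves this sum as it is. On library-normalised levels the sum was 49.3 CPM in WT, 25.4 in DF508 replicate 1 and 48.2 in DF508 replicate 2, so WT lies above both DF508 libraries but almost level with replicate 2. The ratio to WT was 0.514 in replicate 1, with an exact 95% Poisson interval of 0.414 to 0.635, and 0.976 in replicate 2, with an interval of 0.816 to 1.16. These intervals cover counting error only. Replicate 2 stood above replicate 1 by a ratio of 1.9 (1.53 to 2.36), which is more than the distance of replicate 2 from WT. The mean of DF508, 36.8 ± 16.1 CPM (SD, n = 2), has WT within 1 SD. The summed myeloid markers were lowest in WT and highest in DF508 replicate 2, an order that the sum of the copies does not follow; their part in these values was not tested. In bulk samples fewer cells that express a gene and less RNA per cell cannot be told apart.

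Against a floor set at 3 counts in WT, or 0.579 CPM, the DF508 mean of Gm4070 alone, 28.9 ± 5.0 CPM (SD, n = 2), would be 49.9-fold higher. In DF508 replicate 1, the lower library, the fold would be 43.8. The rule chose the members by these counts, so such folds are a description only. The corresponding mean fold is 34.9 for Gm4724 and for Gm14434, each with 20.2 ± 9.36 CPM, and 23.5 in DF508 replicate 2, their lower library. These folds take each estimate as the reads of that copy. When copies were summed instead, the DF508 to WT ratio was 0.745 for Gm4070 with Gvin1. It was 1.54 for Gm4724 and Gm14434 with ID 627914 (Gm4631 by its transcript). Both sums contain members, which the rule chose for their absence from WT.

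The other genes of the Gm4070 family were barely detected. Of 11 symbols listed for the very large GTPases, 5 were in the tables, all with non-whole estimates. Gm1966 had 4.2, 0.99 and 6.5 counts in WT and DF508 replicates 1 and 2. Gm8979 and Gm8989, annotated as transcribed pseudogenes, were listed in DF508 replicate 2 alone, with 1.22 and 1.05 counts. All 5 genes together held 259.97, 134.94 and 263.97 counts, or 50.2, 25.5 and 49.8 CPM. Gm4070 held 0% of this sum in WT, 99.3% in DF508 replicate 1 and 65.1% in replicate 2. Gvin1 was the sole gene of this list besides Gm4070 with enough counts for the test, and it did not pass (log2 fold change -2.65 ± 0.86 SE, adjusted p = 0.235, edgeR's quasi-likelihood test, Benjamini-Hochberg over 12888 genes). Gvin1 holds 98.3% of the Gm4070 stretches, so its fold change is not separate from the counts that the rule used. Across all genes 1.39% were called, 0.489% higher and 0.9% lower in DF508. Next to Gm4070 in the annotation, the pseudogene Gm15645 had 161.11, 166.51 and 154.51 counts, and Gm18852 1.03, 2.06 and 5.03, in WT and DF508 replicates 1 and 2.

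Gm4724 (gene ID 100043915) was listed at 0 in WT, 141.69 counts in DF508 replicate 1 and 71.99 in DF508 replicate 2. Gm14434 (gene ID 668039) was at 0, 141.68 and 72.03. The 2 genes thus received nearly the same estimate in every library, and replicate 1 was the higher of the DF508 libraries for both. In FPKM they stood at 5.92 each in replicate 1 and at 3 and 3.01 in replicate 2, above 47.3% and 34.1% of the genes listed there.

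The entry of this kind that was listed in WT has the gene ID 627914. The tables give it the same length of 4538 bases as Gm4724 and Gm14434. Its ID matched no symbol, but GENCODE assigns the RefSeq transcript that the tables name for it to Gm4631. It had 220.25 counts in WT, 0 in DF508 replicate 1 and 265.58 in DF508 replicate 2, or 9.1, 0 and 11.08 FPKM. As with Gvin1, WT lists this copy without the members, DF508 replicate 1 lists the members without it, and DF508 replicate 2 lists all of them. The 3 entries of 4538 bases summed to 220.25, 283.37 and 409.6 counts, or 42.5, 53.6 and 77.3 CPM. The ratio to WT was 1.26 in replicate 1 (exact Poisson interval 1.05 to 1.51) and 1.82 in replicate 2 (1.54 to 2.16). The DF508 mean was 65.5 ± 16.7 CPM (SD, n = 2), and both DF508 libraries were above WT, by less in replicate 1 than the distance between the DF508 libraries (ratio 1.44, 1.24 to 1.69). The order of the libraries in this sum is also that of the summed myeloid markers (89.7, 136 and 624 CPM); their part in it was not tested. The sum of the 3 entries was added after the data were seen. The rule chose Gm4724 and Gm14434 for their absence from WT, which favours ratios above 1. The intervals cover counting error alone and are no test of a difference. With the members left out, ID 627914 had a ratio to WT of 0 in replicate 1 and 1.18 (0.985 to 1.42) in replicate 2. No test was made of a sum that contains the members.

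**Figure D2:**
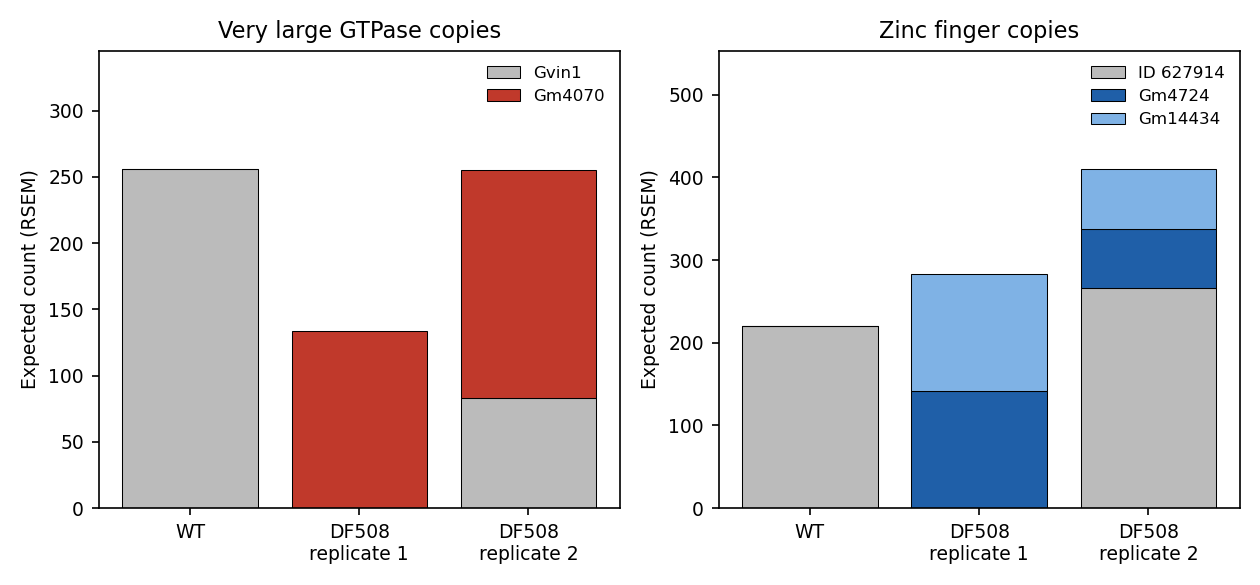
Expected counts from RSEM in the 3 libraries, stacked by copy: Gvin1 and Gm4070 on the left, ID 627914, Gm4724 and Gm14434 on the right. The coloured genes are absent in WT and the grey ones in DF508 replicate 1, while the left-hand stacks of WT and DF508 replicate 2 reach almost the same height, 255.77 and 255.2 counts.

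The sum was also taken over wider sets of genes. The sum of the 3 entries is not closed to read sharing, since the Gm14308 transcript also holds that of Gm14434 whole. Gm14308 was lower in both DF508 libraries, with 40.89 counts in WT, 14.79 in replicate 1 and 22.76 in replicate 2. The 7 entries that hold at least 50% of the 50-base stretches of Gm4724 or Gm14434 were the 3 above with Gm14308, Gm14305, Gm6710 and Gm14391. Together they had 493.97 counts in WT, 535.89 in DF508 replicate 1 and 676.01 in DF508 replicate 2. Replicate 1 differed from WT by less than counting error (ratio 1.06, interval 0.94 to 1.21), and replicate 2 by more (1.34, 1.19 to 1.51). With the members left out, these ratios were 0.502 and 1.05. Over all 23 genes of the cluster list found in the tables, the sums were 2360.15, 2500.02 and 2681.22 counts, or 455, 473 and 506 CPM. The ratios to WT were 1.04 (0.982 to 1.1) and 1.11 (1.05 to 1.17), and 0.922 and 1.05 with the members left out. The members were chosen for their absence from WT, so intervals of sums that contain them are no test. With the members, both of these wider sums were lowest in WT and highest in replicate 2, as the summed myeloid markers were. The markers' part in them was not tested. Gm4724 and Gm14434 held 0% of the cluster's counts in WT, 11.3% in DF508 replicate 1 and 5.37% in replicate 2.

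No other gene of the zinc finger cluster was called. Of 56 symbols, 23 entries were in the tables, and all 23 had estimates that were not whole, against 22.3% of all genes. Of the 21 besides the members, none rose or fell past the threshold, beside 1.39% called across all genes. In edgeR's test 2 had an unadjusted p under 0.05, beside 1538 of all 12888 genes tested. DESeq2's Wald test called 0 of the 21 and 66 of all genes. Limma called 0 of all genes, so its 0 in this list carries no information. A positive fold change was seen in 9 of the 21, and their median was -0.04 on the log2 scale, beside 0.01 over all genes tested and 50.9% positive. The highest by count were Zfp970 (377.28, 388.64 and 357.48 counts in WT and DF508 replicates 1 and 2), Gm14326 (336.06, 294.52 and 356.47), Gm14325 (221.67, 316.46 and 302.27) and Gm14295 (205.52, 193.92 and 198.18). Of these Gm14325 was the one with WT below both DF508 libraries by more than their distance, at a log2 fold change of 0.45 ± 0.13 (SE, adjusted p = 0.179 in edgeR's quasi-likelihood test). Zfp970, Gm14326 and Gm14295 had log2 fold changes of -0.04, -0.08 and -0.1.

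Gm14308, whose transcript holds the whole Gm14434 sequence and which lies 2 genes from Gm14434, had 40.89 counts in WT, 14.79 in DF508 replicate 1 and 22.76 in DF508 replicate 2. It was lower in both DF508 libraries but did not pass (log2 fold change -1.13 ± 0.44 SE, adjusted p = 0.345, edgeR). Gm14305, with 7 substitutions over that sequence, had 19.99, 22.71 and 44.23 counts, with DF508 replicate 2 apart from the others (0.71 ± 0.51 SE, adjusted p = 0.664, edgeR). Gm6710 and Gm14391 each hold 51.5% of the Gm14434 stretches. Gm6710 had 86.1, 77.4 and 54.96 counts and Gm14391 126.74, 137.62 and 144.46. The genes Zfp966 and Zfp967 show the same equal split as Gm4724 and Gm14434, with 23.12 and 23.1 counts in WT, 23.24 each in DF508 replicate 1, and 21.16 and 21.15 in DF508 replicate 2; unlike the members, they were listed in all 3 libraries.

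**Figure D3:**
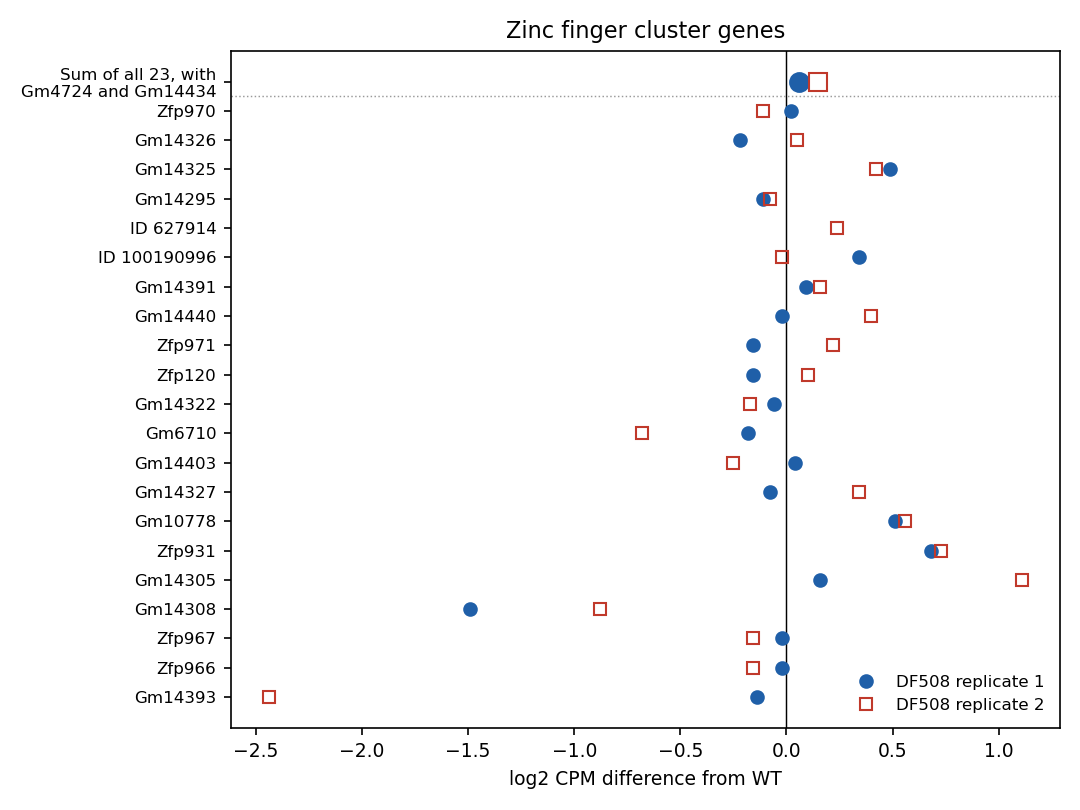
Log2 CPM difference of each DF508 library from WT for the 21 zinc finger cluster entries other than Gm4724 and Gm14434, ordered by mean count, with the sum of all 23 entries at the top. ID 627914, with 220.25 counts in WT, has no point for DF508 replicate 1, where it is listed at 0. The sum lies near 0 in both DF508 libraries (ratios to WT of 1.04 and 1.11). Among the differences plotted, the widest are at genes with few counts.

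All listed genes of the machinery that KRAB zinc finger proteins work through had enough counts for the test. Of 19 corepressor genes tested, 1 was higher in DF508, none was lower and 18 were not called. The share called across all genes was 0.489% higher and 0.9% lower. The corepressor median was 0.12 on the log2 scale, with 14 positive, beside 0.01 and 50.9% positive over all genes tested. Trim28, the corepressor itself, had 878, 997 and 1001 counts in WT and DF508 replicates 1 and 2, and Setdb1 263, 299.75 and 282.97. Both were somewhat higher in each DF508 library and did not pass (adjusted p = 0.623 and 0.786, edgeR). The gene that rose was the maintenance DNA methyltransferase Dnmt1, with 463, 696 and 719 counts (log2 fold change 0.58 ± 0.11 SE, adjusted p = 0.044, edgeR). It was not called by DESeq2's Wald test, nor by limma, which called 0 of all genes.

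Of 14 other interferon-inducible GTPases tested, 2 fell, none rose and 12 did not pass, with a median of -0.37 and 5 positive. Across all genes tested 0.9% were called lower and 0.489% higher, with a median of 0.01 and 50.9% positive. Irgm2 had 375.12, 248.47 and 237.97 counts (log2 fold change -0.66 ± 0.12 SE, adjusted p = 0.0416, edgeR) and Irgm1 285.55, 167.25 and 163.52 (-0.82 ± 0.14 SE, adjusted p = 0.0325, edgeR). Both regulate the immunity-related GTPases at membranes, both share reads with other genes, and both lay lower in the 2 DF508 libraries than in WT. Neither was called by DESeq2's Wald test, nor by limma, which called 0 of all genes. Within this list the closely related Tgtp1 and Tgtp2 were also listed in turn, with 10, 0 and 12 counts for Tgtp1 and 0, 11 and 0 for Tgtp2 in WT and DF508 replicates 1 and 2, or 10, 11 and 12 together. Their estimates were whole numbers. This example was chosen after its values were seen.

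Absence from 1 table beside at least 70 counts in both others was rare and was not confined to WT. It was found for 7 genes, 3 absent from WT, 3 from DF508 replicate 1 and 1 from DF508 replicate 2, and all 7 had non-whole estimates. The 3 absent from WT are the members, 0.018% of the genes listed. Those absent from DF508 replicate 1 were Gvin1, ID 627914 and Tmem254b, and the one absent from DF508 replicate 2 was Fam177a. Tmem254b had 193.65, 0 and 292.15 counts where Tmem254c, a gene of the same family, had 6.32, 299.39 and 19.36. Fam177a had 183.48, 184.87 and 0 counts where Fam177a2 had 183.48, 184.86 and 349.42, so that the sum of this pair was 366.96, 369.73 and 349.42. With Tmem254a (9.03, 15.09 and 6.02 counts), the Tmem254 genes summed to 209, 314.48 and 317.53, lower in WT than in both DF508 libraries. These sums were chosen after their values were seen.

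The genes at 0 in WT that fell outside the rule are given as a description, since the rule used these counts. Of 1275 genes at 0 in WT, the members included, 408 were listed in both DF508 tables. At least 10 counts in each were seen for 6, with the members among them. Ranked by the lower of the DF508 counts, the last member inside the limit was Gm4724 with 71.99, and the next gene was the cytochrome P450 Cyp2e1, with 15.22 and 13.49 counts. It was followed by the haematopoietic actin regulator Hcls1 (11 and 42), the actin regulator Cyfip2 (11 and 12), the forkhead factor Foxl1 (10.28 and 9.87), the predicted gene Gm10406 (9.33 and 12.25) and the class I histocompatibility gene H2-Q8 (9.32 and 9.68). Hcls1 and Cyfip2 had whole estimates and the other 4 did not. Hcls1 was higher in DF508 replicate 2, where the myeloid markers also stood highest; whether these go together was not tested.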

How the data were processed

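Poly(A) RNA of 1 WT and 2 DF508 libraries was sequenced. Per the submitters' processing notes, Bowtie and RSEM with the mm9 genome were used; the sources used here give no versions, annotation release, read length or strandedness. Per the file headers each table holds a deposited expected count per gene, not normalized, an FPKM value deposited by the authors and the gene length. A gene missing from a table was set to 0. Depth was 5241826 to 5298326 counts; 79.4% to 79.8% of estimates were whole within 0.005. No molecular identifiers are described, and the intervals and floors therefore cover counting error alone.

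IDs were named from a RefSeq table (GRCm38.p6), 16579 of 16621, and 16 more by their RefSeq transcript in GENCODE M21. Expected counts were rounded and tested with edgeR 4.0.16's quasi-likelihood test (TMM, filterByExpr, genotype as the sole term, 1 residual and 7.7 prior degrees of freedom, Benjamini-Hochberg, threshold 0.05), with WT assumed to vary like DF508. The test was run on simulated counts, drawn for every library with the dispersion estimated from these data. That check cannot show whether WT varies like DF508, because the simulation assumes it. Sums of copies were compared as ratios with exact conditional 95% intervals (SciPy 1.17.1). No protein table was used, so families are lists of symbols. Transcripts of GENCODE M21 were cut into 50-base stretches and aligned globally (Biopython 1.88).

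The members and lists were chosen with earlier results of these data known. Genes named are the members, list genes past the threshold or otherwise up to 4 highest by count, genes sharing most sequence, neighbours, and the 6 next genes at 0 in WT by the lower DF508 count. Alternatives were DESeq2 1.42.0 size factors and Wald test, no filter, limma 3.58.1 on genes averaging at least 1 FPKM, as log2(FPKM + 1) or log2(FPKM + 0.1), total counts, FPKM sums, members left out and each DF508 library left out, in R 4.3.3.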

Additional observations from a re-analysis of the deposited data

How the results depend on the processing

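The count of 179 genes called across all genes was 187 with DESeq2 size factors, 66 with DESeq2's Wald test, and 0 without a filter on low counts or with limma on log2(FPKM + 1) or log2(FPKM + 0.1), where 1123, 1145 and 1159 genes had an unadjusted p under 0.05. Under those last 4 settings the 2 calls among interferon-inducible GTPases and the 1 call among corepressors also became 0. The very large GTPase and zinc finger lists had 0 calls under all 5 settings. Without a filter and with limma, where 0 of all genes were called, a count of 0 in any list carries no information. In the very large GTPase list the main test covered 1 gene besides the member. The cause was not tested.

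The mean DF508 to WT ratio of the summed levels was 0.751 for the very large GTPase list and 1.08 for the zinc finger list. Leaving the members out gave 0.175 and 0.987. Total counts, DESeq2 size factors and FPKM sums moved both by less than the DF508 spread. Without each DF508 library in turn the ratios were 0.509 to 0.993 and 1.04 to 1.11. Narrower sums, added after the data were seen, gave 1.54 for ID 627914 with Gm4724 and Gm14434 and 1.2 for genes sharing 50-base stretches, and 0.745 for Gm4070 with Gvin1. The level of Gm4070 was 25.4 to 32.4 CPM, and those of Gm4724 and Gm14434 13.6 to 26.8 CPM, with each DF508 library left out. Grouping by protein identity, and the test with 1 DF508 library, which leaves no residual degrees of freedom, were not run. No paired analysis was possible because WT and DF508 share no replicate numbers in the labels. Copies identical over a whole read cannot be separated at any depth.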
